A study of Mus musculus with 18 samples.

Results

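Transcripts of 10 genes of the basal epithelial cell and its desmosomes were followed through 18 RNA sequencing libraries of mouse lung organoids and tumoroids. The genes are Trp63, Ngfr, the desmosomal cadherins Dsg2, Dsg3, Dsc2 and Dsc3, the plaque genes Dsp, Pkp1 and Pkp3, and Perp. They were taken by name from the 46603 genes of each file, with earlier results of these data known, and all 10 were present in all 18 files. Levels are given in TPM (a share of all transcripts, scaled by gene length), which allows comparison between genes, and tests rest on the expected read counts.

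Basal cells are the stem cells of the tracheal epithelium, and p63, a transcription factor of the p53 family encoded by Trp63, is required for them. The low-affinity neurotrophin receptor encoded by Ngfr sits on their surface and is widely used to sort them. Desmosomes join neighbouring epithelial cells: desmogleins and desmocollins span the gap between the cells, plakophilins and desmoplakin tie them to keratin filaments, and Perp is a desmosomal membrane protein known as a target of p53 and p63.

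All cultures came from mice in which human EGFR with the substitutions T790M and L858R stands behind a removable stop cassette and a CAG promoter in the Col1a1 locus. Epithelial cells were sorted before culture, from the trachea into NGFR positive (basal-sorted) and NGFR negative (club-sorted) cells, and from the distal lung into Sca1 positive cells (bronchioalveolar stem cells, BASCs) and Sca1 negative cells (alveolar type 2, AT2). Each sort was divided between Ad-Cre, an adenovirus whose Cre recombinase removes the stop, and Ad-GFP, the control virus, and was grown in Matrigel with neonatal lung mesenchymal support cells, so the libraries hold RNA of both compartments. The 10 organoid libraries were 1 each of club-sorted, basal-sorted, AT2 and mixed BASC cultures with either virus, and of alveolar and bronchiolar BASC cultures picked by shape after Ad-Cre. The 8 tumoroid libraries came from tumors cultured again: 3 from transplanted AT2 organoids, 3 from mixed BASC organoids and 1 from bronchiolar BASC organoids, all Ad-Cre treated and grown in nude mice, and 1 from an autochthonous tumor induced in the lung by Ad-Cre. The mice given virus in the lung were adults by the study's methods, and further ages were not given in the sources used here. The AT2 tumoroids also carry an NGFR negative sorting label and were placed by their stated origin. Tumoroids 2 and 3 of AT2 origin share a number in their labels, as do BASC mixed tumoroids 2 and 3 and the bronchiolar tumoroid, and whether these shared a mouse is not stated. All organoids were sequenced on one platform and all tumoroids on another, so platform and transplantation cannot be told apart. With 1 culture per sort and virus, p-values measure the spread between these cultures.

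Trp63 spans 25683763 to 25892102 on the plus strand of chromosome 16 in GRCm38, and the GENCODE vM21 annotation places coding starts at 2 positions in it. At the upstream one, used by 4 transcripts, the protein begins with the transactivation domain (TAp63), and at the internal one, used by 4 others, it lacks that domain (deltaNp63). Basal cells are known for the deltaN form. The first coding bases at each start are shown because the gene-level values below add both, and the capitals mark the start codon.
TA-type start, chr16:25684290-25684349, plus strand: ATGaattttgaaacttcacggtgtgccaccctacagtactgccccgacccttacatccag
deltaN-type start, chr16:25802060-25802101, plus strand: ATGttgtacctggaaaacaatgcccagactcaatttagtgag
The deposited gene-level values do not separate the transcripts of the 2 starts, so the share of each was not analysed here.

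Promoters of 2 of the 10 genes were held by the RefSeq promoter table used here, those of Ngfr and Dsp, and they are shown because both genes changed with cell type, one from near 0 and the other from a substantial floor. The 250 bases before each RefSeq start are given 5′ to 3′ on the gene's strand in GRCm38.p6, and capitals mark matches to the p53-family half-site, searched on both strands.
Ngfr, chr11:95587699-95587948, minus strand: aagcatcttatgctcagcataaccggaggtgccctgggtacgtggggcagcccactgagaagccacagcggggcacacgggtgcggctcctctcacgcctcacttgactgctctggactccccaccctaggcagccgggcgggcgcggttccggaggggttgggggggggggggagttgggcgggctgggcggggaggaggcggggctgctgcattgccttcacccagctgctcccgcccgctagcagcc
Dsp, chr13:38151044-38151293, plus strand: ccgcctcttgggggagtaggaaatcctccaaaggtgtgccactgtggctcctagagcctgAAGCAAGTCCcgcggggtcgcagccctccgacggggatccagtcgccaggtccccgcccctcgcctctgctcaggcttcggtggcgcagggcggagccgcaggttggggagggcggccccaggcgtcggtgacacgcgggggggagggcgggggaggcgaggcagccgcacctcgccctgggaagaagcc
The Dsp window held 1 half-site and the Ngfr window held 0, against 7.13% of all 32851 promoter windows of the table with at least 1. Both windows were rich in G and C, at 70.4% for Ngfr and 72.4% for Dsp, where the median window had 52.4%. A match is a description of the letters and says nothing of binding.

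An organoid library held between 27772660 and 97191624 expected counts, and a tumoroid library between 15327265 and 23355938. The labels were checked against Krt5 (a basal keratin), Scgb1a1 (the club cell secretoglobin) and Sftpc (the AT2 surfactant gene). Sftpc was at 61210.8 and 60435 TPM in the AT2 organoids and at 60996.2 TPM in the alveolar BASC organoid. The club-sorted organoids went against their name in part: Krt5 stood at 2062.77 and 1898.51 TPM, above the 1694.23 and 1548.64 TPM of the basal-sorted organoids, and Scgb1a1 at only 11.35 and 18.43 TPM, against 10.36 and 7.03 TPM in the basal-sorted organoids and 6391.84 TPM in the bronchiolar BASC organoid. The 4 club markers summed to 8600 and 8008 TPM in the club-sorted and 5817 and 4411 TPM in the basal-sorted organoids. All 4 had lower fitted values in the latter, 3 with an unadjusted p under 0.05, and 1 of them passed, Scgb3a1 at -1.60 on the log2 scale (adjusted p = 0.0018 in edgeR's quasi-likelihood test with Benjamini-Hochberg adjustment). They are called club-sorted here for their sort alone. Sox10, which defines the Schwann cells that also carry Ngfr, was at most 0.02 TPM in the organoids. AT2 tumoroid 3 stood apart, with Col1a1 at 1348.43 TPM and Epcam at 30.79 TPM against 74.09 to 463.25 and 101.12 to 245.83 TPM in the other AT2 and mixed BASC tumoroids. In bulk RNA, fewer cells of a type and less RNA per cell cannot be told apart, which holds for every level below.

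Trp63 was high in every airway-like culture and low in every alveolar one. It stood at 78.77 (Ad-GFP) and 68.33 TPM (Ad-Cre) in the club-sorted organoids and at 71.70 and 66.78 TPM in the basal-sorted organoids. Mixed BASC organoids followed with 59.87 and 52.76 TPM, and the bronchiolar BASC organoid had 53.03 TPM. The alveolar BASC organoid held 4.46 TPM and the AT2 organoids 1.42 (Ad-GFP) and 2.63 TPM (Ad-Cre). Thus the 7 tracheal, mixed and bronchiolar organoids lay between 52.76 and 78.77 TPM and did not overlap with the 3 alveolar ones. Among the tumoroids only the bronchiolar one, at 41.74 TPM, came near them. BASC mixed tumoroids 1 to 3 had 1.52, 9.70 and 2.35 TPM, AT2 tumoroids 1 to 3 had 0.32, 0.43 and 0.90 TPM, and the autochthonous tumoroid had 0.21 TPM.

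**Figure D1:**
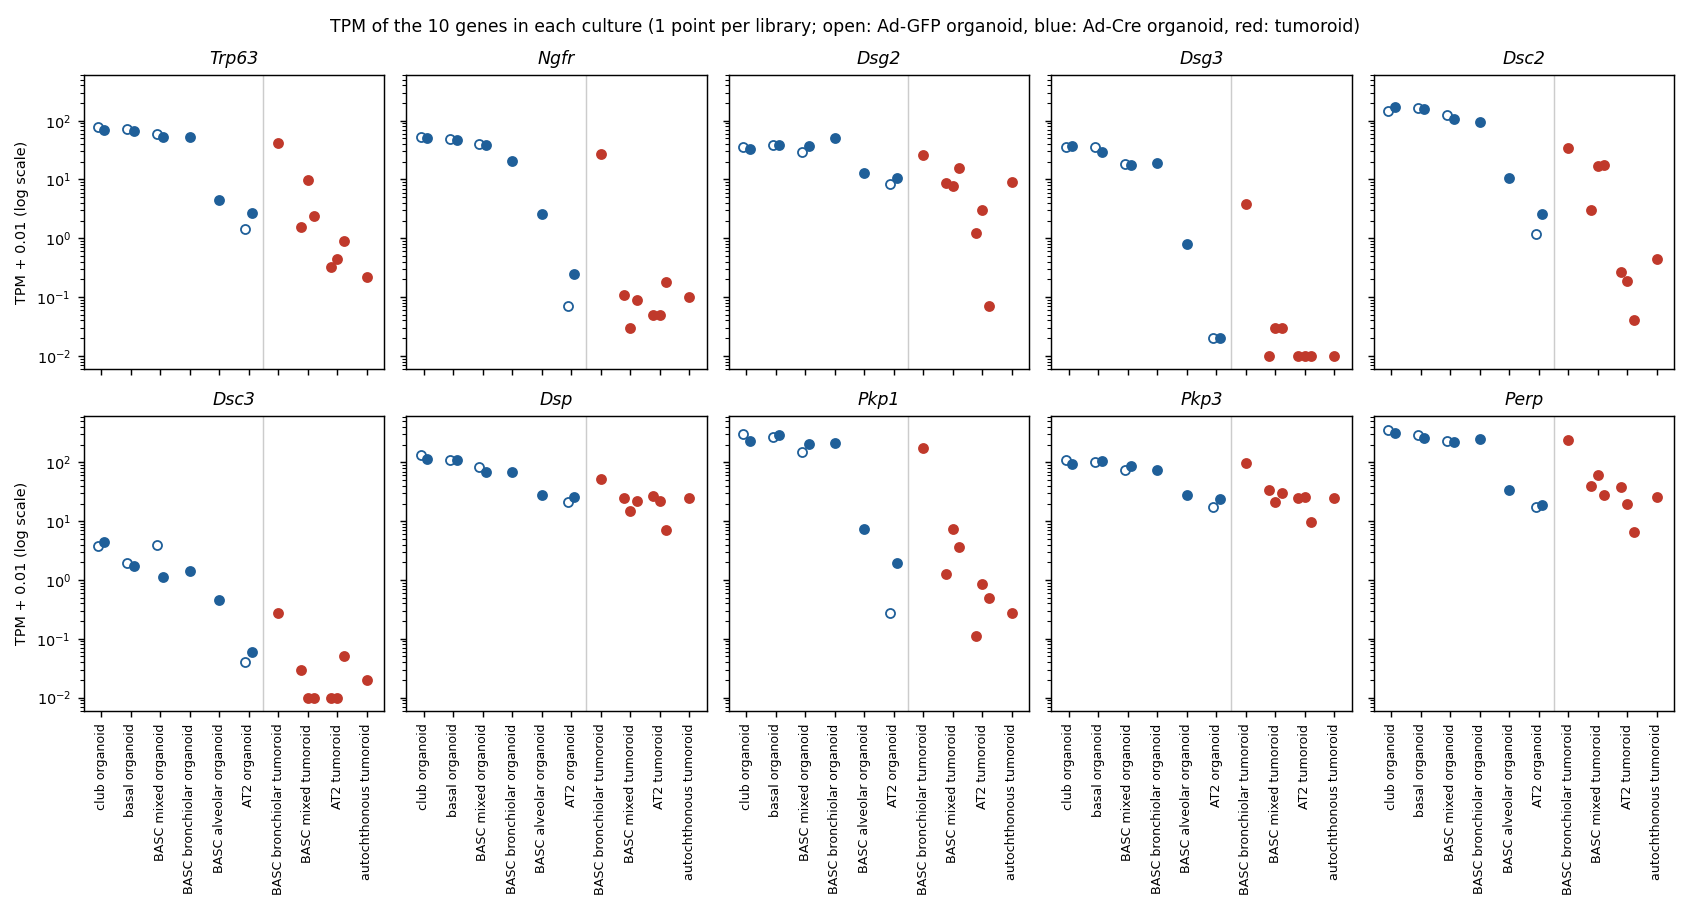
TPM plus 0.01 on a log axis for each of the 10 genes, with 1 point per library and the culture type on the horizontal axis (open, Ad-GFP organoids; blue, Ad-Cre organoids; red, tumoroids). Trp63 stays between 52.76 and 78.77 TPM in the tracheal, mixed and bronchiolar organoids, and Dsp and Pkp3 keep 7.17 TPM or more in every library while Ngfr and Dsg3 approach 0.

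Ngfr was likewise high in the tracheal and low in the AT2 organoids, over a wider range than Trp63. The club-sorted organoids had 53.10 and 50.25 TPM and the basal-sorted organoids 48.26 and 46.60 TPM, although the NGFR protein had separated these cells before culture. Mixed BASC organoids had 39.88 and 38.30 TPM, the bronchiolar BASC organoid 20.43 TPM and the alveolar one 2.57 TPM. The AT2 organoids fell to 0.06 (Ad-GFP) and 0.24 TPM (Ad-Cre), which rest on 9 and 46 counts. All tumoroids but the bronchiolar one, which had 26.83 TPM, were between 0.02 and 0.17 TPM, on 1 to 5 counts each. The ratio of Ngfr to Trp63 in TPM was 0.673 to 0.735 in the tracheal organoids, 0.666 and 0.726 in the mixed BASC organoids and 0.643 in the bronchiolar tumoroid, and lower, at 0.385, in the bronchiolar organoid. In BASC mixed tumoroid 2, the non-bronchiolar transplant tumoroid with the most Trp63, that ratio was 0.0021.

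The 4 desmosomal cadherin genes lie in one stretch of chromosome 18 in GRCm38, from Dsc3, which starts at 19960930, through Dsc2 and Dsg3 to Dsg2, which ends at 20604521. Dsg3, a desmoglein of basal and stratified epithelia, fell in steps from the tracheal to the AT2 organoids. It had 36.13 and 36.96 TPM in the club-sorted, 35.72 and 29.89 TPM in the basal-sorted, 18.43 and 17.38 TPM in the mixed BASC and 19.29 TPM in the bronchiolar BASC organoids. It then dropped to 0.79 TPM in the alveolar BASC organoid and to 0.01 TPM, on 2 counts each, in both AT2 organoids. In the tumoroids it was at 3.89 TPM in the bronchiolar culture and at or under 0.02 TPM, with at most 1 count, in the other 7. Dsg2, the desmoglein of simple epithelia, was spread less. It ranged from 33.13 to 38.58 TPM in the tracheal and from 29.88 to 50.35 TPM in the mixed and bronchiolar BASC organoids, and it was still at 12.64 TPM in the alveolar BASC and at 8.21 and 10.47 TPM in the AT2 organoids. Its lowest value, 0.06 TPM, came from AT2 tumoroid 3.

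Dsc2 was the most abundant cadherin of the set in the tracheal organoids, with 146.52 and 172.23 TPM in the club-sorted and 163.89 and 159.18 TPM in the basal-sorted ones. It stood at 123.09 and 105.56 TPM in the mixed BASC, 93.54 TPM in the bronchiolar and 10.44 TPM in the alveolar BASC organoids, and at 1.19 and 2.60 TPM in the AT2 organoids. Unlike Ngfr and Dsg3, Dsc2 kept a measurable level in all 3 BASC mixed tumoroids, at 2.97, 17.05 and 17.56 TPM, where AT2 tumoroids had 0.26, 0.18 and 0.03 TPM. Dsc3 was the least abundant of the 10 genes in the tracheal organoids, with 3.83 and 4.45 TPM in the club-sorted and 1.91 and 1.73 TPM in the basal-sorted ones. Its values in the BASC organoids were 3.95 (mixed, Ad-GFP), 1.10 (mixed, Ad-Cre), 1.39 (bronchiolar) and 0.45 TPM (alveolar), and in the AT2 organoids 0.03 and 0.05 TPM.

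Among the plaque genes, Pkp1 (plakophilin 1, the form of stratified epithelia) changed most. It had 301.68 and 232.85 TPM in the club-sorted, 274.50 and 291.37 TPM in the basal-sorted, 152.20 and 206.04 TPM in the mixed BASC and 212.75 TPM in the bronchiolar BASC organoids. The alveolar BASC organoid had 7.25 TPM and the AT2 organoids 0.27 (Ad-GFP) and 1.95 TPM (Ad-Cre). Pkp3 (plakophilin 3) and Dsp (desmoplakin, the link to keratin) kept a floor in every library. Pkp3 ranged from 92.89 to 108.13 TPM in the tracheal organoids and was at 17.21 and 23.63 TPM in the AT2 organoids, and Dsp ranged from 109.25 to 132.50 TPM against 21.59 and 26.19 TPM. Over the tumoroids other than the bronchiolar one, Pkp3 lay between 9.51 and 33.46 TPM and Dsp between 7.17 and 26.70 TPM, with AT2 tumoroid 3 the lowest for both. Perp was the most abundant of the 10 in 3 of the 4 tracheal organoids, at 361.08 and 317.44 TPM in the club-sorted and 291.75 and 260.30 TPM in the basal-sorted ones. It was at 17.39 and 19.00 TPM in the AT2 organoids, 33.99 TPM in the alveolar BASC organoid and 6.64 to 60.96 TPM in the AT2 and mixed BASC tumoroids. Reads shared with other genes gave fractional counts for Dsg2 in 13 and for Dsp in 17 of 18 libraries, so their values carry that uncertainty.

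Tracheal organoids were set against AT2 organoids (4 against 2 cultures, the club- and basal-sorted ones together) to ask how far these genes separate the proximal from the distal lung cultures. The 2 AT2 cultures are parts of a single sort, and the tracheal ones are parts of the club and the basal sort. The SEs and p-values therefore measure the spread between these cultures and not between repeated sorts of a population. All 10 genes were higher in the tracheal organoids and their TPM ranges did not overlap, which held for 73.0% of all genes tested. edgeR's quasi-likelihood test with Benjamini-Hochberg adjustment called 64.8% of the 18705 genes tested, and 32.7% of those tested as higher in tracheal organoids, so calls were common here and the sizes say more than the count. The median log2 fold change was 5.61 over the 10 genes and 0.045 over all genes tested. Dsg3 rose most, by 11.51 on the log2 scale (SE 0.23, adjusted p = 9.1e-08), but against only 4 counts, and the ratio of its library-scaled counts (CPM) was 3270, with a 95% counting interval of 1277 to 12002. Dsg3, Ngfr (9 and 46 counts in AT2 organoids) and Dsc3 (6 and 15) passed the filter on low counts through the tracheal libraries, and with at least 10 counts asked of every library 7 of the 10 genes were left, all called. Ngfr followed with 8.13 (SE 0.35, adjusted p = 8.5e-07) and Pkp1 with 7.84 (SE 0.76, adjusted p = 5.7e-05). Dsc2 was higher by 6.30 (SE 0.33), Dsc3 by 6.06 (SE 0.62), Trp63 by 5.16 (SE 0.27) and Perp by 3.95 (SE 0.15). The smallest differences were those of Pkp3 at 2.17 (SE 0.13), Dsp at 2.11 (SE 0.12) and Dsg2 at 1.83 (SE 0.12), and their largest adjusted p was 7.7e-06.

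Epithelial transcripts moved the same way. Summed TPM of Epcam, Cdh1, Krt8 and Krt18 was 2949 to 3201 in the tracheal and 1061 and 1245 in the AT2 organoids, while that of 7 fibroblast markers was 785 to 855 and 2866 to 3386. Relative to the mean log2 CPM of the 4 epithelial genes (with a prior count of 2, which narrows the differences of scarce genes), the differences were 8.68 for Dsg3, 7.03 for Pkp1, 6.88 for Ngfr, 5.03 for Dsc2, 4.23 for Dsc3, 3.88 for Trp63 and 2.59 for Perp. For Pkp3, Dsp and Dsg2 less than 1 log2 unit was left, namely 0.83, 0.77 and 0.48. The direction stayed positive for all 10 on this scale, and the part of cell makeup in these differences was not tested.

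**Figure D2:**
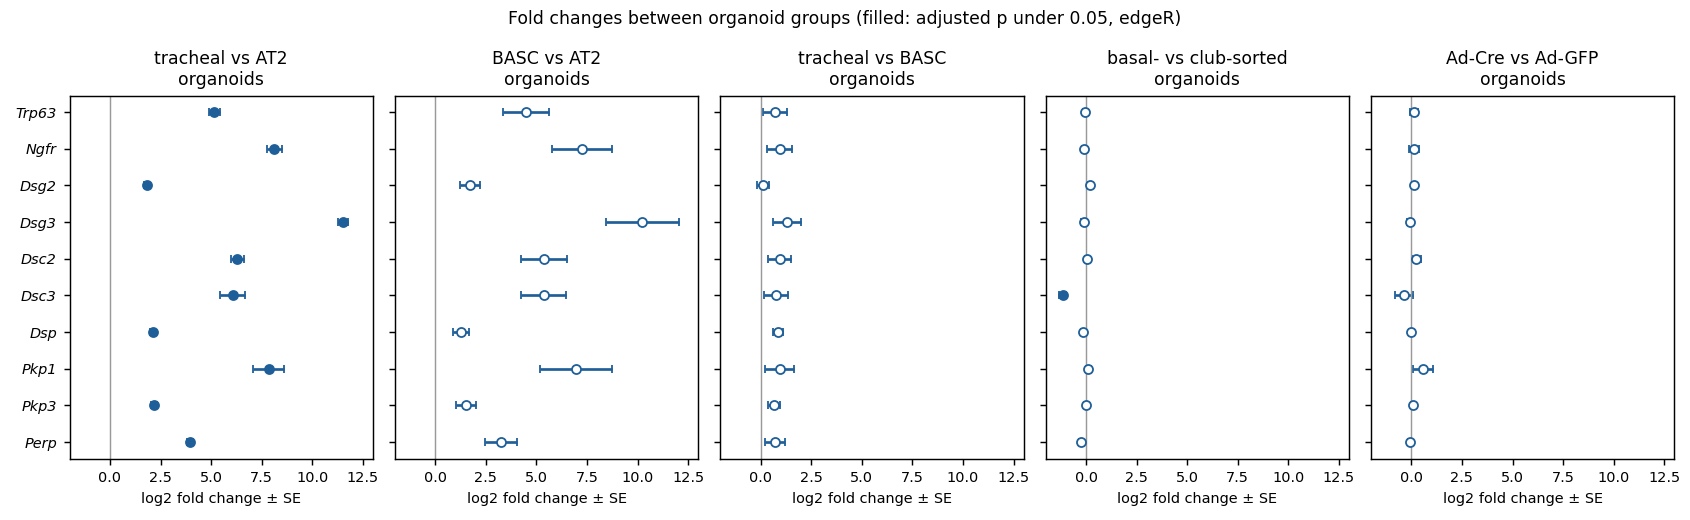
Log2 fold changes with standard errors (bars) from edgeR for the 10 genes in 5 comparisons of organoids, first-named group over the second (filled points, adjusted p under 0.05). All 10 genes are above 0 in tracheal against AT2 organoids and in BASC against AT2 organoids, where the errors are wider, and only Dsc3 is filled between basal- and club-sorted organoids.

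Basal-sorted organoids were compared with club-sorted organoids (2 against 2) to see what the NGFR sort had left after culture. Both cultures of a sort are parts of 1 sort, so this compares 1 sort with 1 sort, and the p-values measure only the spread between the parts. Dsc3 was lower in the basal-sorted organoids, at 1.82 ± 0.13 against 4.14 ± 0.44 TPM (SD, n = 2 each), a difference of -1.16 on the log2 scale (SE 0.16, adjusted p = 0.0388 in edgeR's quasi-likelihood test). It was the only one of the 10 genes to pass, where 0.267% of 17234 genes were called in either direction and 0.186% as lower in basal-sorted organoids. Trp63 differed by -0.03 on the log2 scale, with a 95% interval of -0.25 to 0.19, and Ngfr by -0.09, with an interval of -0.30 to 0.11. Perp had -0.26 (interval -0.51 to -0.02, adjusted p = 0.561) and Dsg2 0.20 (interval 0.00 to 0.40, adjusted p = 0.603) and neither passed. For the other 5 genes the intervals included 0 and reached no further than -0.39 or 0.38. TPM did not overlap between the sorts for 6 of the 10 genes, and for 36.7% of all genes tested. These intervals bound the differences but do not show that the cultures were alike.

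Within the BASC organoids the alveolar culture was the lowest for each of the 10 genes. The share of all genes lowest in that culture was not counted. Against the AT2 organoids (4 against 2), all 10 genes had higher TPM in BASC organoids with no overlap, where 33.4% of all genes tested did not overlap. The differences were 10.24 (SE 1.82) on the log2 scale for Dsg3, on 4 AT2 counts, 7.26 (SE 1.48) for Ngfr, 6.94 (SE 1.78) for Pkp1, 5.38 (SE 1.14) for Dsc2, 4.47 (SE 1.13) for Trp63 and 1.27 (SE 0.40) for Dsp, and the ratio of CPM for Dsg3 was 1449 (95% counting interval 566 to 5321). None of the 10 passed in edgeR's quasi-likelihood test (adjusted p = 0.26 for each), and 0% of 18866 genes were called, although 3565 genes and all 10 of these had an unadjusted p under 0.05 and DESeq2 called 1811 genes including all 10. Without the alveolar BASC organoid, edgeR called 6266 genes and all 10, with Trp63 at 4.84 (adjusted p = 0.0024) and Ngfr at 7.61 (adjusted p = 0.0037), and with the mixed BASC cultures alone 5898 genes and all 10. The numbers of genes tested in these alternatives are not given here, so the calls have no share beside them. The culture left out was the lowest BASC organoid for all 10, so its removal raises the BASC values. Dsg3 (2 counts in each AT2 organoid), Ngfr (9 and 46) and Dsc3 (6 and 15) passed the filter through the BASC libraries. Relative to the epithelial genes, Dsp and Pkp3 no longer differed in that direction, at -0.22 and -0.0048, while Dsg3 kept 6.65, Ngfr 5.34 and Trp63 2.63.

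Between tracheal and BASC organoids (4 against 4), 8 of the 10 genes did not overlap in TPM and were higher in the tracheal organoids, the exceptions being Dsg2 and Dsc3, where 11.6% of all genes tested did not overlap. None of the 10 passed, against 0.0227% of 17589 genes called, and 1 of them, Dsp, had an unadjusted p under 0.05. Its log2 fold change was 0.85 (95% interval 0.27 to 1.43, adjusted p = 0.205), that of Trp63 was 0.71 (-0.65 to 2.07) and that of Ngfr 0.94 (-0.50 to 2.38). When the alveolar BASC organoid was left out, Dsg3 passed with 0.92 (adjusted p = 0.0361). Without the Ad-GFP mixed BASC organoid, Dsp passed with 1.00 (adjusted p = 0.0426) and 2817 genes were called. DESeq2 on all 8 libraries called 1069 genes, of which 1 was of this set, Dsp, at 0.85 (adjusted p = 0.0422). These comparisons share the tracheal, AT2 and BASC libraries and do not stand as separate evidence. In each of them the cultures of a population are parts or subcultures of the same sorted cells. Viruses were unbalanced where BASC organoids took part, since only the mixed BASC cultures included Ad-GFP, and the fits had no term for the virus. Their p-values therefore do not measure the spread between repeated sorts.

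The pair of BASC cultures picked by shape after Ad-Cre, 1 of each, has no test. In log2 CPM (library-scaled counts), 6 of the 10 genes were at least 4-fold higher in the bronchiolar than in the alveolar organoid, where 5.35% of 18045 genes were. They were Pkp1 (a log2 difference of 4.60), Dsg3 (4.32), Trp63 (3.31), Dsc2 (2.91), Ngfr (2.71) and Perp (2.64). Dsg2 (1.73), Dsc3 (1.35), Pkp3 (1.30) and Dsp (1.04) stayed below that fold, and at a 2-fold limit all 10 passed, as did 5164 of the 18045 genes in either direction. Relative to the epithelial genes the differences of Dsc3, Dsp and Pkp3 turned to -0.34, -0.64 and -0.38.

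Ad-Cre was compared with Ad-GFP within the club-sorted, basal-sorted, AT2 and mixed BASC populations (4 against 4, with the population as a term) to see whether mutant EGFR changed these genes in organoids. None of the 10 passed in edgeR's quasi-likelihood test, with an adjusted p of 0.994 for each, and 0% of 17749 genes did, while 350 genes but none of the 10 had an unadjusted p under 0.05 and DESeq2 called 5 genes, none of the 10. The log2 fold change of Trp63 was 0.11 (95% interval -0.38 to 0.60), that of Ngfr 0.14 (-0.47 to 0.75) and that of Perp -0.07 (-0.27 to 0.14). The interval was widest for Pkp1, at 0.58 (-0.60 to 1.75), and Dsc3, at -0.36 (-1.45 to 0.72). Both had uneven pairs: Pkp1 went from 0.27 to 1.95 TPM with Ad-Cre in AT2 organoids and from 301.68 to 232.85 TPM in club-sorted organoids, and Dsc3 from 3.95 to 1.10 TPM in mixed BASC organoids. Other genes had uneven pairs too, such as Ngfr, at 0.06 TPM with Ad-GFP and 0.24 TPM with Ad-Cre in AT2 organoids. Within the AT2 pair the Ad-Cre culture had the higher TPM for 9 of the 10 genes, Dsg3 being level, and also for Krt5, at 5.03 against 1.25 TPM. The share of all genes higher in that culture was not counted. Its summed TPM of the 4 epithelial genes was also higher, at 1245 against 1061, and that of the 7 fibroblast markers lower, at 2866 against 3386. This pair is a single library of each virus, and neither its differences nor the part of cell makeup in them was tested. Over the 4 populations and scaled to the epithelial genes, the fold changes of Trp63, Dsg2 and Pkp3 turned to -0.07, -0.06 and -0.13. A test of whether the effect of the virus differed between tracheal and distal organoids called 0 of 17749 genes in edgeR, while 852, Dsg2 among them, had an unadjusted p under 0.05. Dsg2 had an adjusted p of 0.998 in edgeR, and that interaction was not run in DESeq2.

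The 7 tumoroids from transplants were compared with the 4 distal Ad-Cre organoids to see what became of these genes in tumors. All 10 genes had lower fitted values in the tumoroids, with a median log2 fold change of -1.69 against -0.0016 over all genes, but none passed in edgeR's quasi-likelihood test, where 19.6% of 16139 genes were called. The nearest was Dsc3 at -3.79 (SE 1.24, adjusted p = 0.0538). TPM overlapped between the groups for all 10 genes, as it did for most of the 16139 genes tested. Each group held both airway-like and alveolar cultures, and the part of this mixture in the overlap was not tested. Trp63 was at 2.63, 4.46, 52.76 and 53.03 TPM in the organoids and ran from 0.32 to 41.74 TPM in the tumoroids. Without the bronchiolar tumoroid, 3716 genes and 3 of the 10 passed: Ngfr at -7.62 (adjusted p = 0.0027), Pkp1 at -5.41 (adjusted p = 0.0199) and Trp63 at -3.46 (adjusted p = 0.0475), while Dsg3 and Dsc3 had too few counts to be tested. Ngfr had only 1 to 5 counts in each tumoroid left and passed the filter through the organoids, where it was higher. The tumoroid left out was the highest for each of the 10 genes, and the bronchiolar organoid was kept, so this choice itself lowers the tumoroid values. Without both bronchiolar cultures 2230 genes passed and, of the 10, Ngfr alone, at -7.49 (adjusted p = 0.0088), on the same few tumoroid counts. DESeq2 on all 11 libraries called 1 of the 10, Dsc3 (adjusted p = 0.0383).

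Mixed BASC organoids and the tumoroids named for them can be set side by side. Trp63 was at 59.87 and 52.76 TPM in the former and 1.52 to 9.70 TPM in the latter, Dsg3 at 18.43 and 17.38 against 0 to 0.02 TPM, and Pkp1 at 152.20 and 206.04 against 1.25 to 7.50 TPM. Pkp3, at 74.98 and 88.10 against 21.19 to 33.46 TPM, and Dsp, at 82.80 and 69.31 against 14.83 to 24.59 TPM, were closer. Over the same cultures the summed TPM of 6 AT2 markers was 773 and 3441 in the organoids and 33044 to 69012 in the tumoroids.

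BASC mixed tumoroids were compared with AT2 tumoroids (3 against 3). In each group tumoroids 2 and 3 share a number in their labels, so the 3 may not be independent. Of the 10 genes, 7 had enough counts to be tested, and Ngfr, Dsg3 and Dsc3 did not, with at most 5 counts in any of the 6. None of the 7 passed and 0% of 15470 genes did in edgeR's quasi-likelihood test, while 144 genes had an unadjusted p under 0.05 and DESeq2 called 8 genes. Dsc2 was the one of the 10 that DESeq2 called (adjusted p = 4.2e-07), with 12.5 ± 8.28 against 0.157 ± 0.117 TPM (SD, n = 3 each) and was higher by 6.07 on the log2 scale (SE 1.08, adjusted p = 1.00) in edgeR. Trp63 (3.16, SE 0.83), Pkp1 (3.01, SE 0.97) and Dsg2 (2.75, SE 1.14) also had an unadjusted p under 0.05, and TPM did not overlap for these 4 genes, against 5.43% of all genes tested. Pkp3 (0.24), Dsp (-0.05) and Perp (0.75) overlapped. Leaving out AT2 tumoroid 3 gave 5.59 for Dsc2 and 3.45 for Trp63, and leaving out BASC mixed tumoroid 2 gave 5.79 and 1.91, with no gene called either way.

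**Figure D3:**
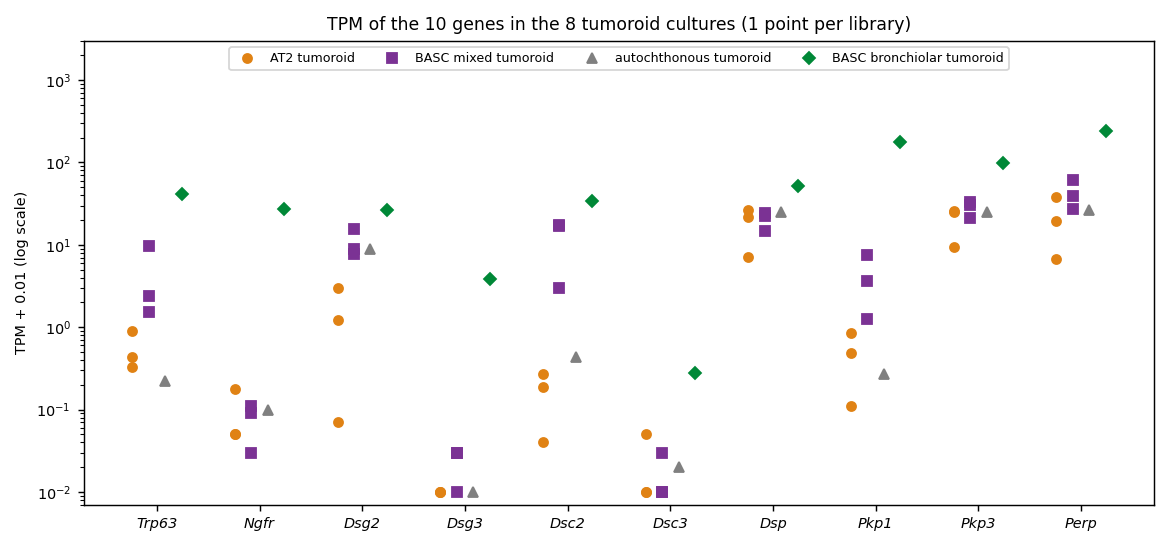
TPM plus 0.01 on a log axis for the 10 genes in the 8 tumoroid libraries, with 1 point per library and the origin of the culture given by colour and symbol. The bronchiolar BASC tumoroid is above all others for every gene, from 0.27 TPM for Dsc3 to 242.16 TPM for Perp, and Dsc2 separates the 3 BASC mixed from the 3 AT2 tumoroids.

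The bronchiolar tumoroid held the highest value of all 8 tumoroids for each of the 10 genes, a ranking whose share of all genes was not counted. It is a single culture, so its distance from the 6 AT2 and mixed BASC tumoroids has no test. By the rule of at least 4-fold in log2 CPM and outside their range, 8 of the 10 genes were higher, where 4.92% of 17678 genes were. Ngfr was higher by 8.02 on the log2 scale (26.83 against 0.02 to 0.17 TPM), Pkp1 by 7.39 (176.15 against 0.10 to 7.50 TPM) and Trp63 by 5.20 (41.74 against 0.32 to 9.70 TPM). Dsc2 was higher by 4.87, Dsg2 by 3.44 and Perp by 3.29. Dsg3 and Dsc3 had 2 and 3 counts over the 6 tumoroids, and their ratios of CPM were 663 (95% counting interval 181 to 5503) and 40.2 (12.0 to 210). Pkp3 (1.99) and Dsp (1.55) were above the range of the 6 but under 4-fold. Leaving out each of the 6 in turn gave 8 or 9 genes. The summed TPM of the 4 epithelial genes was 3801 in this tumoroid and 741 to 3335 in the others, and relative to those genes the differences were 7.12 for Ngfr, 6.20 for Pkp1 and 4.00 for Trp63 but only 0.76 for Pkp3 and 0.31 for Dsp.

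This tumoroid can also be read beside the bronchiolar BASC organoid, which carries the same population label before transplantation. Pkp1 was at 176.15 TPM in the tumoroid and 212.75 TPM in the organoid, Perp at 242.16 and 254.29 TPM, and Pkp3 at 97.85 and 74.79 TPM. Ngfr was at 26.83 and 20.43 TPM and Trp63 at 41.74 and 53.03 TPM. The desmosomal cadherins were further apart, with Dsg3 at 3.89 and 19.29 TPM, Dsc2 at 34.19 and 93.54 TPM, Dsc3 at 0.27 and 1.39 TPM and Dsg2 at 26.40 and 50.35 TPM. Each is 1 library on its own platform, and no comparison of the pair was tested. Its Krt5 was 102.61 TPM against 425.84 TPM in the organoid, and its Scgb1a1 8472.89 against 6391.84 TPM.

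The partner within a pair of related genes also differed by culture. Dsg3 made up 50.5% and 52.7% of the summed TPM of Dsg3 and Dsg2 in the club-sorted organoids and 48.1% and 43.8% in the basal-sorted ones. The share was 38.1% and 31.5% in the mixed BASC, 27.7% in the bronchiolar and 5.88% in the alveolar BASC organoids, and 0.122% and 0.095% in the AT2 organoids. In the bronchiolar tumoroid it was 12.8%, and in the other tumoroids at most 0.257%. Pkp1 made up 71.5% to 73.6% of Pkp1 and Pkp3 in the tracheal organoids and 67.0% to 74.0% in the mixed and bronchiolar BASC organoids, so these 7 cultures were much closer in the plakophilins than in the desmogleins. Its share was 20.6% in the alveolar BASC organoid, 1.55% and 7.62% in the AT2 organoids, 64.3% in the bronchiolar tumoroid and 0.40% to 26.1% in the AT2 and mixed BASC tumoroids. Dsc2 was the main desmocollin almost throughout: Dsc3 made up at most 4.13% of the pair in any organoid, and the one high share, 57.1% in AT2 tumoroid 3, rests on 1 and 2 counts. These shares are read from single libraries and were not tested.

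**Figure D4:**
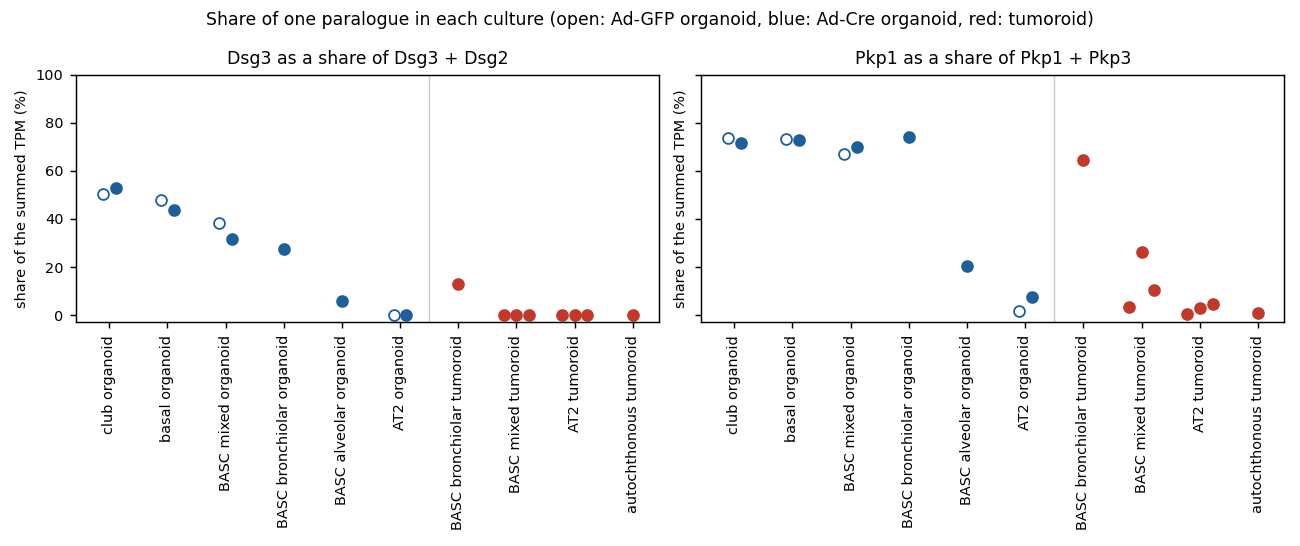
Share of Dsg3 in the summed TPM of Dsg3 and Dsg2 (left) and of Pkp1 in that of Pkp1 and Pkp3 (right), in percent, with 1 point per library by culture type (open, Ad-GFP organoids; blue, Ad-Cre organoids; red, tumoroids). The Dsg3 share declines from 52.7% in a club-sorted to 27.7% in the bronchiolar BASC organoid, while the Pkp1 share stays between 67.0% and 74.0% over these cultures.

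Genes that act with the 10 were taken from fixed lists, and their counts are given for tracheal against AT2 organoids, where 64.8% of all genes were called. Of 9 hemidesmosome genes, which anchor basal cells to the basement membrane, 8 were higher in the tracheal organoids and 0 lower, with a median log2 fold change of 1.32. The largest were Col17a1 (9.57, SE 0.35), the collagen XVII of the hemidesmosome, and Itgb4 (6.04, SE 0.57), its integrin subunit. Of 10 p53 family genes and genes known as p63 targets, 9 were higher and 0 lower, with a median of 3.62. Krt14 (9.22, SE 0.65) and Krt5 (9.03, SE 0.66), the basal keratins, rose most, and Trp53, the gene left over, had 0.03 (SE 0.24). Of 9 other desmosome and plakin genes, 5 were tested, 3 were higher and 1 was lower, with a median of 0.63. Evpl (1.74, SE 0.10), the envoplakin gene, rose and Dsg1a (-6.34, SE 0.81), a further desmoglein, fell, although at 0.32 TPM on average in AT2 organoids it was scarce. Jup and Pkp2, named here after their values were seen, encode plakoglobin and plakophilin 2. Jup differed by 0.66 (SE 0.12, adjusted p = 0.0014) and Pkp2 by 0.04 (SE 0.12, adjusted p = 0.767).

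Neurotrophins and their receptors did not move with Ngfr as a group. Of 11 genes, 10 were tested, 2 were higher and 5 lower in tracheal organoids, with a median of -0.55. Ntf3, the gene of neurotrophin-3, rose by 6.29 (SE 0.32) and Bdnf, that of brain-derived neurotrophic factor, fell by 2.51 (SE 0.15) on the log2 scale. The 4 basal keratins were higher with a median of 9.12, led by Krt17 (11.29) and Krt14 (9.22), and the 4 epithelial genes by 1.13, led by Epcam (2.55) and Krt18 (1.57). Krt5 and Krt14 are in both the basal keratin list and that of the p63 targets, so these lists overlap. Of the markers of other cells, all 5 ciliated genes were higher (median 7.38, led by Dnah5 at 10.14 and Ccdc113 at 8.92), 3 of 4 club genes were higher and 1 lower (median 4.54, led by Scgb3a1 at 6.73 and Scgb3a2 at 5.93), and 2 of 5 AT1 genes were higher and 3 lower (median -1.32, led by Ager at -9.11 and Rtkn2 at -7.39). All 6 AT2 genes (median -10.08, led by Sftpc at -11.78 and Lamp3 at -11.28) and all 7 fibroblast genes (median -2.48, led by Lum at -2.80 and Pdgfra at -2.70) were lower. Endothelial markers summed to 0.35 to 0.61 TPM in these 6 libraries, Schwann cell markers to 5.65 to 8.70 TPM, and immune markers, mostly Cd68, to 81.9 to 103 TPM in the tracheal and 23.9 and 24.3 TPM in the AT2 organoids. Their part in the levels of the 10 genes was not tested.

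**Figure D5:**
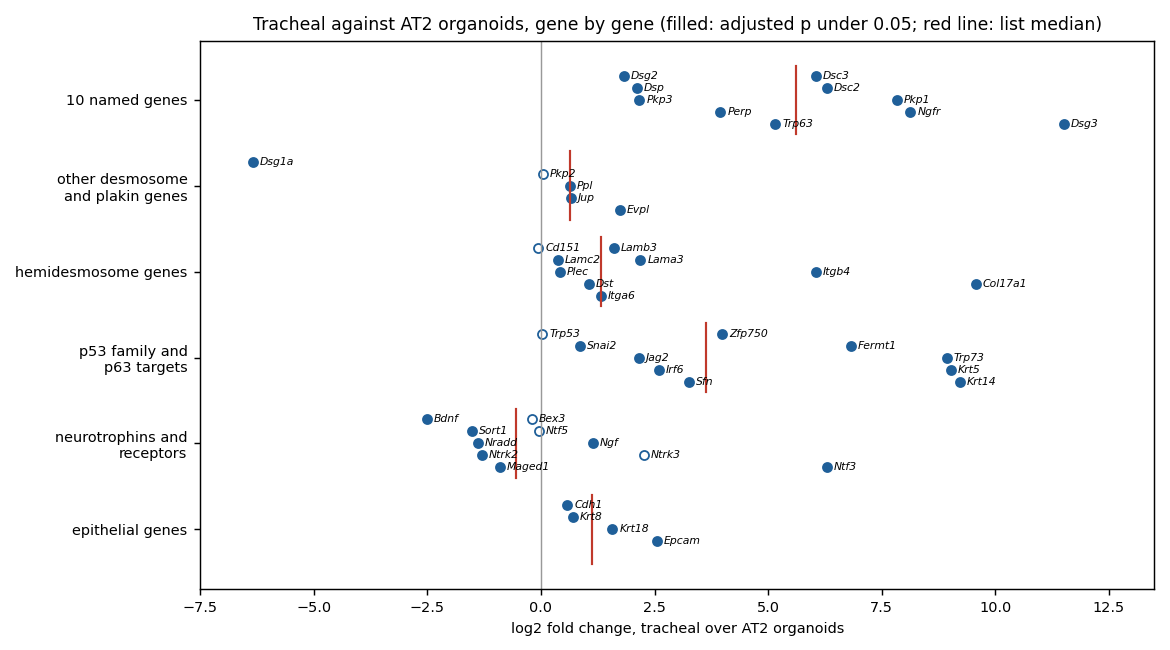
Log2 fold change of each tested gene in tracheal over AT2 organoids (4 against 2 cultures), by list, with filled points for an adjusted p under 0.05 in edgeR and a red line at the list's median. The medians are 5.61 for the 10 genes, 0.63 for the other desmosome and plakin genes, 1.32 for the hemidesmosome genes, 3.62 for the p53 family and p63 targets, -0.55 for the neurotrophins and 1.13 for the epithelial genes.

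In the bronchiolar tumoroid against the other 6, with no test, 9 of 10 genes of the p53 family and p63 targets were past the 4-fold rule and higher, led by Krt14 (10.71) and Krt5 (9.94). Of 9 hemidesmosome genes 4 were, led by Col17a1 (7.07) and Itgb4 (5.41), and of 4 basal keratins, which again include Krt5 and Krt14, 3 were, with Krt15 not among them. None of the 5 other desmosome and plakin genes with enough counts was higher, and Dsg1a was lower, with 0 TPM against 1.32 TPM on average. None of 9 neurotrophin genes passed in either direction and 1 of 4 epithelial genes, Epcam, did (2.39). All 4 club markers were higher, led by Scgb3a2 (12.75) and Scgb3a1 (9.02), and 4 of 6 AT2 markers were lower, led by Sftpc (-3.71) and Slc34a2 (-3.35).

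The genes whose pattern was most like that of Trp63 and Ngfr were ranked by Pearson's r of log2(TPM + 1) over all 18 libraries, among 15208 genes with a mean of at least 1 TPM and leaving out the 10. For Trp63 they were Sox2 (r = 0.988), Dapl1 (0.982), Anxa8 (0.981), Cbr2 (0.980) and Foxj1 (0.978). For Ngfr they included Vsnl1 (0.997), Trim29 (0.996), Cldn23 (0.994) and Bnc1 (0.994). Of the 10 genes, Pkp1 was most like Trp63 (0.990) and Dsg2 least (0.847), and Dsg3 was most like Ngfr (0.975) and Dsg2 least (0.806). The libraries fall into groups, so such values mainly reflect the split into airway-like and alveolar cultures, and no p is given. Over the 10 organoids alone, 0 of the 5 genes stayed in the list of either.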

How the data were processed

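RNA was measured in 10 organoid and 8 tumoroid libraries, each with 1 gene-level file. Per the submitters' processing notes and the study's methods, the authors trimmed reads with Trimmomatic 0.39, aligned them to GRCm38 with STAR 2.6.1d and quantified genes with RSEM 1.3.2, and deposited expected counts (RSEM's estimated reads per gene, not normalized) and TPM (relative transcript abundance, scaled by effective length) together with a length per gene. Reads that fit several genes are shared among them by RSEM, which makes some expected counts fractional.

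Of 46603 gene identifiers, 46005 were matched to a symbol through GENCODE vM21 and 598 were not. Reads of the EGFR transgene were not analysed here. Expected counts were rounded, filtered with filterByExpr, scaled by TMM and tested with edgeR 4.0.16 (quasi-likelihood test, Benjamini-Hochberg adjustment over all genes tested, threshold 0.05) in R 4.3.3 with limma 3.58.1, and fold changes are given with SE and 95% intervals. Each fit held only the libraries compared. For Ad-Cre against Ad-GFP the population was a block, since each sort was divided between the viruses, and the deviations of the 2 libraries of a population from the virus means correlated with r of 0.677 (club-sorted), 0.819 (basal-sorted), 0.943 (AT2) and 0.308 (mixed BASC). Where a group had 1 culture no test was made, and log2 CPM with a prior count of 2 were compared at a limit of 4-fold. Count ratios against 4 counts or fewer carry exact 95% intervals that cover counting error only. DESeq2 1.42.0, other filters, scalings and sample sets and the removal of each library were run as alternatives. The scripts were tested on simulated data.

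Named were the 10 genes, the 2 largest changes past the threshold of every other list, the 5 genes most like Trp63 and like Ngfr (1 of those for Ngfr is not reported here), and Krt5, Sftpc and Scgb1a1 as checks. Jup, Pkp2, Col1a1, Sox10, Cd68, Trp53 and Krt15 were named after their values were seen, as was Scgb3a1 beside the sort. The 10 genes and the lists were chosen with earlier results of these data known. Epithelial scaling subtracts the mean log2 CPM (prior count of 2) of Epcam, Cdh1, Krt8 and Krt18 in each library, and the prior count narrows the differences of scarce genes.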

Additional observations from a re-analysis of the deposited data

Results flagged for a closer look

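Groups of 4 and of 6 cultures were searched for 1 value far from the rest, for genes of the 10 that reached 1 TPM, and 4 of 27 groups held one, where chance gives about 1 in 20 if groups are independent. These groups share libraries, and 3 of the 4 values came from 1 culture that was picked for its alveolar shape. The alveolar organoid lay below the other 3 BASC organoids for Trp63, at 4.46 TPM against 52.76 to 59.87 TPM. The same culture was low for Dsg3, at 0.79 TPM against 17.38 to 19.29 TPM, and for Perp, at 33.99 TPM against 220.65 to 254.29 TPM. BASC mixed tumoroid 2 lay above the other 5 AT2 and BASC mixed tumoroids for Trp63, at 9.7 TPM against 0.32 to 2.35 TPM. It also had the highest Scgb1a1 of the 6, at 2910.31 TPM against 1.32 to 66.47 TPM, while its Ngfr was 0.02 TPM, and the part of either in the Trp63 level was not tested.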

How the results depend on the processing

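Of the alternatives for single genes, 895 were counted as the same, 87 as moved, 40 as gaining a call and 27 as changing sign. For rescalings and comparisons without a test, a change of sign was counted only for genes called or past 4-fold. Other sign changes there, such as those given above relative to the epithelial genes, fall among the 895 and the 87. With DESeq2 the genes called rose to 210 for basal- against club-sorted, 1069 (1 of the 10) for tracheal against BASC, 1811 (all 10) for BASC against AT2 and 5 for Ad-Cre against Ad-GFP organoids, to 5630 (1 of the 10) for transplant tumoroids against organoids and to 8 (1 of the 10) for BASC mixed against AT2 tumoroids. Without a filter on low counts the sorts gave 650 genes, and with at least 10 counts in every library tracheal against BASC organoids gave 0. The mixed BASC cultures alone gave 5898 genes and 10 of the 10 against AT2 organoids, and dropping both bronchiolar libraries left 1 of the 10 in transplant tumoroids. A 2-fold limit gave 3392 genes for the bronchiolar tumoroid and 5164 genes with 10 of the 10 for the bronchiolar organoid, and log2(TPM + 1) gave 693 and 922. Leaving out 1 library gave 52 to 410 genes for the sorts, 0 to 2817 (0 to 1 of the 10) for tracheal against BASC, 0 to 6266 (0 to 10) for BASC against AT2 and 1973 to 3716 (0 to 3) for transplant tumoroids. Between the sorts it moved Trp63 between -0.11 and 0.040, Dsg3 between -0.29 and 0.018, Dsc2 between -0.12 and 0.21, Pkp1 between -0.040 and 0.25 and Pkp3 between -0.11 and 0.076, and between tracheal and BASC organoids Dsg2 between -0.11 and 0.38. For Ad-Cre it moved Trp63 between -0.12 and 0.22, Ngfr between -0.034 and 0.29, Dsg3 between -0.19 and 0.014, Dsc3 between -0.63 and 0.15, Dsp between -0.12 and 0.032 and Pkp3 between -0.024 and 0.17, and without the population block Trp63 was -0.12, Ngfr -0.047 and Pkp3 -0.018. Between BASC mixed and AT2 tumoroids it moved Dsp between -0.47 and 0.35 and Pkp3 between -0.15 and 0.56. The causes were not tested. Ngfr, Dsg3 and Dsc3 rest on 5 counts or fewer in 7 of the 8 tumoroids, which limits what their values there can show.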
